A study of Neurospora crassa with 18 samples.

Results

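The RNA of *ash1*(Y888F) was set directly against the RNA of Δ*set-2* in *Neurospora crassa*, a filamentous fungus. Both strains lack the activity of one of the enzymes that methylate lysine 36 of histone H3 (H3K36). The members of the comparison are the 2 RNA samples of these strains among the 18 samples of the series, each with 2 libraries, so 4 of the 8 RNA libraries enter it. All 9730 genes of the count files were compared, and 8270 had enough counts to be tested.

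SET-2 is the H3K36 methyltransferase that travels with RNA polymerase II and modifies genes as they are transcribed. ASH1 methylates H3K36 independently of transcription and is found mainly on genes with little or no expression. Part of the ASH1-marked chromatin also carries di- and trimethylation of lysine 27 (H3K27me2/3), a mark of facultative heterochromatin made by SET-7. The comparison asks how far the transcriptomes left by the loss of each activity differ from each other, and at which genes.

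*ash1*(Y888F) (N4878) is mating type *A* and *his-3*, and carries the catalytic substitution in a 3xFLAG-tagged *ash1* gene with a hygromycin resistance marker (*hph*). Δ*set-2* (N5761) is mating type *a* with *set-2* replaced by *hph*. WT (N623) is mating type *A* and *his-3*, and the parent (N2930) is mating type *A*, *his-3* and Δ*mus-52*::*bar*. All were labelled germinated conidia. The 2 mutants thus differ in mating type, in *his-3* and in the tag as well as in the methyltransferase, and differences from these sources cannot be told apart from those of the mutations. Each mutant is 1 strain, nothing states whether its 2 libraries came from separate cultures, and the p-values measure only the spread between those libraries.

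The 4 mutant libraries held 6547197 to 7593750 counts in genes. Spearman's rho was 0.959 between the *ash1*(Y888F) libraries and 0.985 between the Δ*set-2* libraries, against 0.882 to 0.901 across the strains. The first *ash1*(Y888F) library carries another date in its name than the other 3 mutant libraries, and the step it dates is not stated. The WT and parent libraries, called the controls below, share a date that no mutant library carries. Differences between a mutant and the controls therefore cannot be told apart from those of that step. The libraries labelled Δ*set-2* still held 46 and 50 counts of *set-2*, against 113 to 210 in the other 6 RNA libraries, whereas *mus-52* had 2 and 2 in its deletion; whether the remaining reads lie outside the replaced part cannot be read from counts per gene. Markers fixed for the labelled tissue were present in every mutant library: summed over 6 conidial genes they reached 323 and 273 CPM (counts scaled to the library total) in *ash1*(Y888F), against 952 and 976 CPM in Δ*set-2*, with *con-13* at no more than 4 counts. The conidial sums were 185 and 114 CPM in WT and 262 and 250 CPM in the parent, below both mutants. The 6 hyphal growth genes summed to 25733 and 19848 CPM in *ash1*(Y888F) and to 19860 and 16178 CPM in Δ*set-2*. In WT they summed to 27795 and 29360 CPM and in the parent to 30362 and 32203 CPM, above both mutants. The 6 genes of sexual tissue summed to 719 and 1168 CPM in *ash1*(Y888F), against 182 and 174 CPM in Δ*set-2*, 270 and 183 CPM in WT and 193 and 162 CPM in the parent, with *asd-3* and *sms-2* at 0 in the first Δ*set-2* library. The highest single gene made up 314 and 730 CPM of the *ash1*(Y888F) sums. One member, *sub-1*, went the other way, with 235 and 288 counts in *ash1*(Y888F), against 363 and 393 in Δ*set-2* and 405 to 802 in the controls. Fewer cells of a type and less RNA per cell cannot be told apart in these samples, and the part of cell composition in the differences was not tested.

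In edgeR's quasi-likelihood test at a Benjamini-Hochberg adjusted p under 0.1, 1226 of the 8270 genes (14.8%) were higher in *ash1*(Y888F) and 908 (11.0%) were lower. The 2 sets differed in size and level. Among the higher genes 754 differed at least 4-fold and 207 at least 32-fold, against 280 and 17 among the lower genes. Genes at 0 in a mutant entered these counts at a bound, set by a floor of 3 counts over its 2 libraries. The higher genes had a median of 20.6 CPM in *ash1*(Y888F) and 2.73 CPM in Δ*set-2*, and the lower genes 20.2 CPM in *ash1*(Y888F) and 60.8 CPM in Δ*set-2*, beside 35.9 and 35.3 CPM over all genes tested. The genes higher in *ash1*(Y888F) were thus mostly weakly expressed in Δ*set-2*, in part because they were selected as lower there. The counts depended on the Δ*set-2* libraries: without the first of them 753 genes were higher and 494 lower, and without the second 886 were higher and 433 lower. Of the calls, 611 higher and 310 lower genes passed in every fit that left out 1 of the 4 libraries. Without the *ash1*(Y888F) library of the other date, 1259 genes were higher and 976 lower.

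**Figure D1:**
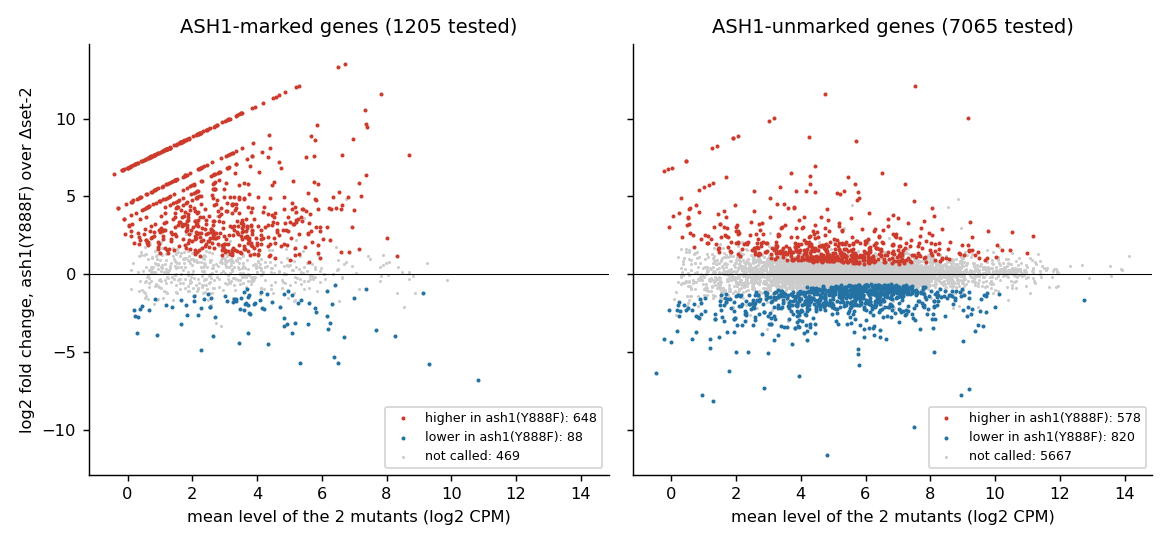
Fitted log2 fold change of each tested gene (*ash1*(Y888F) over Δ*set-2*, vertical axis) against the mean level of the 2 mutants (log2 CPM, horizontal axis), for ASH1-marked genes on the left and ASH1-unmarked genes on the right. Red points passed the test as higher and blue points as lower; of the marked genes 648 were higher and 88 lower, of the unmarked genes 578 and 820, and the slanted lines at the upper left are genes with 0 or few counts in Δ*set-2*, whose fitted fold depends on the prior count.

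Most genes that were silent in one mutant and expressed in the other were expressed in *ash1*(Y888F). With at least 10 counts in both libraries of one mutant and 0 in both of the other, 133 genes were detected in *ash1*(Y888F) alone, and 4 in Δ*set-2* alone. Of the 133, 120 carried the ASH1 mark and 40 both marks, and 41 had no count in any WT or parent library. None of the 4 carried the ASH1 mark.

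ASH1-marked genes are those whose H3K36me2 in Δ*set-2*, where ASH1 is the remaining enzyme, stood above the level across the centromeres in ChIP-seq; the list holds 1970 genes. Of these, 1205 were tested, 648 were higher in *ash1*(Y888F) and 88 were lower. The ASH1-unmarked genes went the other way on balance, with 578 higher and 820 lower of 7065 tested. Marked genes made up 52.9% of the higher genes and 9.69% of the lower genes, beside 14.6% of the genes tested. A marked gene that was silent in Δ*set-2* could be tested only where *ash1*(Y888F) expressed it, so these counts are no share of the list. Over all 1970 genes, 1194 and 1240 had at least 10 counts in the *ash1*(Y888F) libraries, against 746 and 783 in Δ*set-2*, 637 and 611 in WT, and 613 and 594 in the parent. The mutants did not overlap in this number. They did overlap in the summed share of counts, which was 2.92 and 3.89% in *ash1*(Y888F), against 2.02 and 3.18% in Δ*set-2*. Single genes weigh on this sum. The marked gene NCU06294 alone had 7398 and 47848 counts in Δ*set-2*, of 7593750 and 7317786 in all, against 91 and 354 in *ash1*(Y888F). The shares without it were not computed, so the overlap does not describe the marked genes as a class. Without the first or the second Δ*set-2* library the unmarked genes called fell to 215 or 265 higher and 432 or 379 lower, whereas 538 or 621 marked genes were called higher. Without the second Δ*set-2* library 54 marked genes were called lower.

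The ASH1-marked genes were split by H3K27me2/3. Of 600 co-marked genes 225 were tested, 136 were higher and 27 lower, with a median log2 fold change of 2.72. Of 1370 genes with the ASH1 mark alone 980 were tested, 512 were higher and 61 lower, with a median of 1.61. Of 236 genes with H3K27me2/3 alone 162 were tested, 33 were higher and 47 lower, with a median of −0.28. Of 7524 genes with neither mark 6903 were tested, 545 were higher and 773 lower, with a median of 0.00, beside 0.07 over all genes tested. Setting genes at 0 in a mutant to their bound left these medians as they were. The classes differ in the share tested, with 375 of the co-marked genes not tested, so neither medians nor counts rank them. Without the first Δ*set-2* library, 141 genes with H3K27me2/3 were higher and 47 were lower, against 169 and 74 with all libraries.

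**Figure D2:**
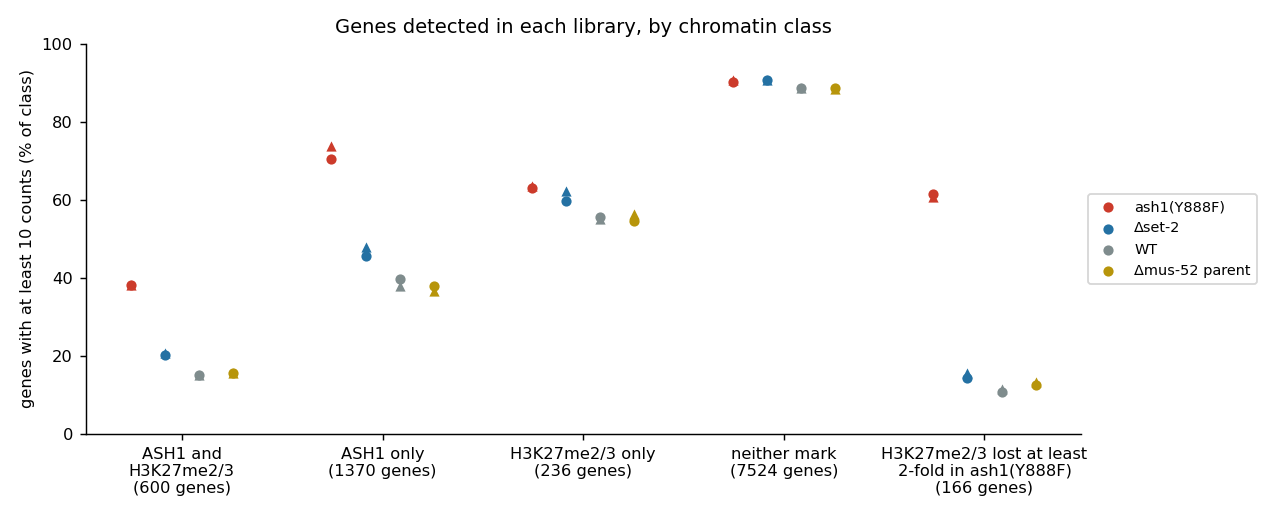
Percent of the genes of each chromatin class with at least 10 counts, for each library (circles, first library; triangles, second library) of *ash1*(Y888F), Δ*set-2*, WT and the Δ*mus-52* parent. In the co-marked class 38.2 and 38.2% were detected in *ash1*(Y888F), against 20.2 and 20.8% in Δ*set-2*, and in the class with the ASH1 mark alone 70.4 and 73.8% in *ash1*(Y888F), against 45.6 and 48.0% in Δ*set-2*, whereas in the class with neither mark 90.2 and 90.8% were detected in *ash1*(Y888F), against 90.7 and 90.8% in Δ*set-2*.

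The genes were also grouped by their level in WT, whose libraries did not enter the fit. Of 1273 marked genes under 1 CPM in WT 518 were tested, 386 were higher in *ash1*(Y888F) and 19 lower. At 1 to 10 CPM in WT 167 of 442 tested were higher and 48 lower, at 10 to 100 CPM 86 of 218 were higher and 19 lower, and at 100 CPM or more 9 of 27 were higher and 2 lower. Of 873 unmarked genes under 1 CPM 208 were tested, 69 were higher and 52 lower. At the other levels, in the same order, 92 of 974, 290 of 4087 and 127 of 1796 unmarked genes were higher, and 189, 459 and 120 lower. Under 1 CPM most genes of both kinds were not tested and those tested were chosen in part by their level in *ash1*(Y888F); from 1 CPM upward, where nearly all genes were tested, the share of higher genes was larger among marked genes at each level, with no test of that difference.

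The change of H3K27me2/3 in *ash1*(Y888F) over WT, measured by ChIP-seq and therefore apart from the RNA, was given for 592 genes. Of 166 genes that lost the mark at least 2-fold, 96 were tested and 82 were higher in *ash1*(Y888F), with 4 lower; their median log2 fold change was 6.08, or 4.62 with genes at 0 in a mutant set to their bound. The other 70 had too few counts, and 32 of the 96 tested were at 0 in a mutant. A gene silent in Δ*set-2* could be tested only where *ash1*(Y888F) expressed it, so the 82 genes and the median do not stand for the 166. Over all 166, 102 and 101 genes had at least 10 counts in *ash1*(Y888F), against 24 and 26 in Δ*set-2*, 18 and 19 in WT, and 21 and 22 in the parent. They took 0.316 and 0.263% of the counts in *ash1*(Y888F), against 0.0241 and 0.0313% in Δ*set-2*. Of 115 genes with a smaller loss 57 were tested, 26 were higher and 6 lower. Of 286 genes with a gain under 2-fold 55 were tested, 21 were higher and 13 lower. Of 25 genes with a gain of at least 2-fold 7 were tested, 2 were higher and 3 lower. The groups differ in the share tested, so these counts do not rank them.

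Among the genes with the largest losses of the mark, NCU04703 had 55 and 37 counts in *ash1*(Y888F), against 0 and 0 in Δ*set-2*, at least 34.7-fold higher. NCU12045 had 12 and 2 counts in *ash1*(Y888F), against none in Δ*set-2*, NCU12078 had 2 and 2 against none, and NCU04709 had 0 and 1 against none; these 3 were not tested, so the deepest loss did not always come with detectable RNA. NCU04935, with the largest gain (log2 ratio 1.81), had 1 and 3 counts in *ash1*(Y888F), against 44 and 98 in Δ*set-2*, with WT at 0 and 3. Its log2 fold change was −4.89 ± 0.73 (SE; edgeR adjusted p = 0.0115). NCU08192, at a gain of 1.51, had 2 and 2 counts in *ash1*(Y888F), against 1 and 2 in Δ*set-2*, and NCU05713 and NCU09766 had none in either mutant. NCU07152, a gene the study followed, had 116 and 194 counts in *ash1*(Y888F) and 0 in both Δ*set-2*, both WT and both parent libraries, at least 117-fold higher than in Δ*set-2*.

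The largest differences toward *ash1*(Y888F) were at genes with almost no RNA in Δ*set-2* or in WT. NCU08818 had 159 and 2776 counts in *ash1*(Y888F), against 0 and 0 in Δ*set-2*, at least 1108-fold higher over both libraries, though the *ash1*(Y888F) libraries themselves differed more than 10-fold. NCU06590 had 1541 and 854 counts against 0 and 0 (at least 904-fold), NCU08796 had 667 and 370 against 0 and 0 (at least 392-fold), and NCU06476 had 382 and 395 against 0 and 0 (at least 293-fold). NCU00425 had 312 and 374 counts in *ash1*(Y888F), against none in Δ*set-2*, at least 259-fold higher. All 5 carry the ASH1 mark, and NCU08818 and NCU08796 also carry H3K27me2/3. NCU05980, which carries neither, had 1201 and 3837 counts in *ash1*(Y888F), against 1 and 0 in Δ*set-2*, giving a ratio of 5708 with an exact 95% counting interval of 1024 to 225495. Among genes with a symbol, the ASH1-marked *amt* had 159 and 192 counts in *ash1*(Y888F), against 3 and 4 in Δ*set-2* (5.77 ± 0.40, edgeR adjusted p = 0.00366).

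Most genes of mating and sexual development had more RNA in *ash1*(Y888F), some of them with Δ*set-2* below the controls. Of the 16 genes of this list 15 were tested, 10 were higher and none was lower, against 14.8 and 11.0% of all genes (edgeR; 10 had an unadjusted p under 0.05, and DESeq2 called 10 higher and 0 lower), with a median log2 fold change of 2.03 beside 0.07 over all genes. Apart from the 3 *mat A* genes, 7 of 12 tested were higher. The mating-type genes come first because the strains differ in mating type: *mat A-1*, the regulator that specifies *A* identity, had 239 and 486 counts in *ash1*(Y888F), against 0 and 0 in Δ*set-2*, which carries the other idiomorph and lacks the gene. *mat A-2* had 46 and 55 counts and *mat A-3* 38 and 88 in *ash1*(Y888F), with none in Δ*set-2*. The *A* strains WT and the parent had 11 to 25 counts of *mat A-1* and 0 to 1 of the other 2 genes, so the counts of *ash1*(Y888F) stood above them as well.

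*ccg-4*, which encodes the pheromone precursor of *A* strains, had 1382 and 4840 counts in *ash1*(Y888F), against 0 and 2 in Δ*set-2*, giving a ratio of 3525 (exact 95% counting interval 975 to 29111). WT had 5 and 3 counts, and the parent 26 and 31. The precursor of the *a* pheromone, *mfa-1*, had 395 and 240 counts in *ash1*(Y888F), against 748 and 127 in Δ*set-2*, with 11 and 9 in WT and 6 and 6 in the parent. Its log2 fold change of −0.27 ± 0.80 did not pass (edgeR adjusted p = 0.840) and was 1.5 without the first Δ*set-2* library. Of the pheromone receptors, *pre-1*, the receptor of *A* cells, had 122 and 191 counts in *ash1*(Y888F), against 13 and 17 in Δ*set-2*, a log2 fold change of 3.54 ± 0.39 (edgeR adjusted p = 0.00616), with 17 to 30 in WT and the parent. *pre-2*, the receptor of *a* cells, had 12 and 4 counts in *ash1*(Y888F), against 13 and 13 in Δ*set-2* (edgeR adjusted p = 0.638). The genes *pp-1* and *mak-2*, a transcription factor and a MAP kinase of the pheromone response and of hyphal fusion, had log2 fold changes of 0.00 ± 0.23 and 0.07 ± 0.26.

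Genes of perithecial and ascus development, which lie outside the mating-type locus, were also higher. *poi-2*, needed for perithecium formation, had 635 and 267 counts in *ash1*(Y888F), against 10 and 6 in Δ*set-2*, a log2 fold change of 6.0 ± 0.66 (edgeR adjusted p = 0.00630), with 5 to 10 counts in the 4 control libraries. *asd-1*, known from ascus development, had 1450 and 5443 counts in *ash1*(Y888F), against 992 and 867 in Δ*set-2* (log2 fold change 2.03 ± 0.60, edgeR adjusted p = 0.0740), and *asd-3* had 47 and 57 against 0 and 11 (3.39 ± 1.00, edgeR adjusted p = 0.0740). *fsd-1*, a transcription factor of female development, had 256 and 310 counts in *ash1*(Y888F), against 73 and 131 in Δ*set-2* (1.65 ± 0.35, edgeR adjusted p = 0.0292), but 204 and 242 in WT, so here Δ*set-2* stood apart from the controls. *pp-2* had 277 and 261 counts in *ash1*(Y888F), against 183 and 112 in Δ*set-2*, and 215 to 672 in the controls, and was not above them either. *asd-1* did not pass without either of the Δ*set-2* libraries (edgeR adjusted p = 0.172 and 0.154), *fsd-1* not without the first (0.143), *asd-3* not without the second *ash1*(Y888F) library (0.133), and *pp-2* not without any 1 of the 4 (0.105 to 0.487). The log2 fold change of *asd-1* was 0.90 without the second *ash1*(Y888F) library.

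**Figure D3:**
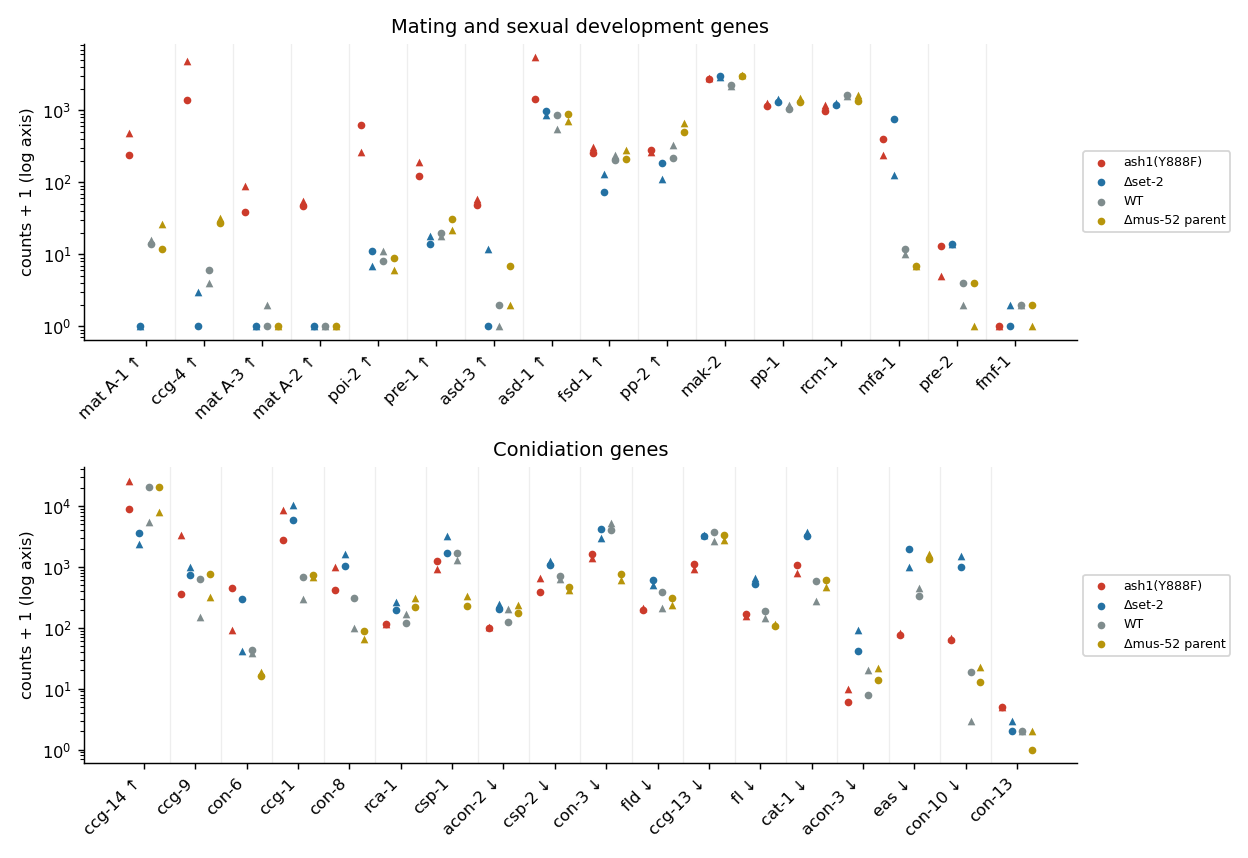
Counts plus 1 (log axis) of each gene of the mating and sexual development list (top) and of the conidiation list (bottom) in each library (circles, first library; triangles, second library), ordered by fold change, with arrows on genes that passed as higher or lower in *ash1*(Y888F). In the upper panel the *ash1*(Y888F) points of *mat A-1*, *ccg-4* and *poi-2* lie above those of every other strain, and in the lower panel those of *eas* and *con-10* lie below both Δ*set-2* points.

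Conidiation genes went the other way. Of the 18 list genes found 17 were tested, 10 were lower in *ash1*(Y888F) and 1 was higher, against 11.0 and 14.8% of all genes, with a median log2 fold change of −0.99. *con-10*, a protein abundant in conidia, had 63 and 68 counts in *ash1*(Y888F), against 1001 and 1491 in Δ*set-2*, a log2 fold change of −4.07 ± 0.31 (edgeR adjusted p = 0.00438). WT had 18 and 2 counts and the parent 12 and 22, so both mutants were above the controls and Δ*set-2* by far the most. *eas*, the hydrophobin of the conidial rodlet layer, had 76 and 82 counts in *ash1*(Y888F), against 1966 and 999 in Δ*set-2* (−4.05 ± 0.42, edgeR adjusted p = 0.00558), with 338 and 454 in WT and 1333 and 1620 in the parent.

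Several regulators of conidial development are on the list. *fl*, the major transcription factor of macroconidiation, had 167 and 155 counts in *ash1*(Y888F), against 516 and 667 in Δ*set-2* (−1.69 ± 0.26, edgeR adjusted p = 0.0124), with 106 to 185 in the 4 control libraries. *acon-3* had 5 and 9 counts in *ash1*(Y888F), against 40 and 92 in Δ*set-2* (−3.04 ± 0.61, edgeR adjusted p = 0.0252), with 7 to 21 in the controls. *fld* had 197 and 207 against 605 and 505 (−1.28 ± 0.24, edgeR adjusted p = 0.0207), with 211 to 384 in the controls. For both genes Δ*set-2* stood above the controls. *cat-1*, a catalase of conidia, had 1072 and 799 counts in *ash1*(Y888F), against 3217 and 3736 in Δ*set-2* (−1.70 ± 0.32, edgeR adjusted p = 0.0206). The controls had 272 to 612 counts of *cat-1*, so both mutants were above them and Δ*set-2* the most. The regulators *rca-1* and *csp-1* did not pass (log2 fold changes −0.82 and −0.95, edgeR adjusted p = 0.104 and 0.169), and *acon-2* and *csp-2* passed but not without either Δ*set-2* library. Not all conidial genes passed: *con-6* had 456 and 92 counts in *ash1*(Y888F), against 297 and 40 in Δ*set-2*, a log2 fold change of 0.92 ± 1.08 that was −0.78 without the first *ash1*(Y888F) library, and *con-8* had 420 and 989 against 1053 and 1658 (−0.79 ± 0.44). The 1 list gene that was higher, *ccg-14*, had 8929 and 26190 counts in *ash1*(Y888F), against 3553 and 2381 in Δ*set-2*. Without the first Δ*set-2* library 5 of the list were lower and none higher, and without the second 7 were lower and none higher; *fld* (edgeR adjusted p = 0.134) was lost without the first and *ccg-14* without either (0.113 and 0.127).

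Few light-responsive genes passed. Of the 15 genes of the light and clock list 3 were lower in *ash1*(Y888F) (20%, against 11.0% of all genes) and none was higher (edgeR; 4 had an unadjusted p under 0.05, and DESeq2 called 0 higher), with a median of −0.42. *bli-3* had 555 and 320 counts in *ash1*(Y888F), against 4023 and 3573 in Δ*set-2* (−2.92 ± 0.40, edgeR adjusted p = 0.00958), and *phr*, the photolyase, 358 and 114 against 1789 and 1325 (−2.50 ± 0.60, edgeR adjusted p = 0.0435). The blue-light receptor gene *wc-1* had 545 and 446 counts in *ash1*(Y888F), against 1094 and 1059 in Δ*set-2* (−0.93 ± 0.25, edgeR adjusted p = 0.0603), and did not pass without either Δ*set-2* library (0.243 and 0.239). The clock gene *frq* had 985 and 394 counts in *ash1*(Y888F), against 1101 and 1002 in Δ*set-2* (−0.40 ± 0.48). Of the 5 carotenoid genes *al-2*, phytoene synthase, was called, with 887 and 416 counts in *ash1*(Y888F), against 10363 and 8330 in Δ*set-2* (−3.63 ± 0.52, edgeR adjusted p = 0.0103), while *al-1*, phytoene desaturase, had 1926 and 432 against 7280 and 4338 and did not pass (−2.07 ± 0.77, edgeR adjusted p = 0.130). In *phr*, *al-1* and *al-2* the *ash1*(Y888F) library of the other date was the higher of the pair. Without it 7 genes of the light list were lower, and *al-1* passed (log2 fold change −3.66, edgeR adjusted p = 0.00583); without the second *ash1*(Y888F) library 5 were lower.

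Among the genes that were higher in *ash1*(Y888F) were 3 of meiotic silencing, the pathway that silences unpaired DNA in the sexual phase. *sms-2*, its Argonaute, had 2034 and 2342 counts in *ash1*(Y888F), against 0 and 3 in Δ*set-2*, giving a ratio of 1653 (exact 95% counting interval 565 to 8017), with 2 to 6 counts in the control libraries. *sad-2* had 59 and 93 counts in *ash1*(Y888F) but 0 in every other library, at least 57.4-fold higher than in Δ*set-2*, and *sad-1*, its RNA-directed RNA polymerase, had 40 and 109 against 6 and 22 (2.56 ± 0.74, edgeR adjusted p = 0.0714). These 3 genes carry the ASH1 mark. The other genes of the silencing list, among them the quelling genes of vegetative cells, did not share one direction. *qde-3*, a helicase, had 305 and 395 counts in *ash1*(Y888F), against 182 and 203 in Δ*set-2* (1.04 ± 0.24, edgeR adjusted p = 0.0406). *qde-2*, the vegetative Argonaute, had 1150 and 2012 counts in *ash1*(Y888F), against 2462 and 2565 in Δ*set-2* (−0.50 ± 0.32, edgeR adjusted p = 0.325), and the Dicer gene *dcl-1* was lower, with 185 and 246 against 733 and 1175 (−1.97 ± 0.31, edgeR adjusted p = 0.0133). *dcl-1* had 96 to 171 counts in the control libraries, so Δ*set-2* was the strain that stood apart. The list names *sms-3* and *rrp-3* were not matched to a gene. A gene annotated *rrp3*, which was lower in *ash1*(Y888F), was not counted under *rrp-3*. Of the 9 silencing genes that were matched, 4 were higher and 1 lower, beside 14.8 and 11.0% of all genes. Without the first Δ*set-2* library 2 were higher; *sad-1* was lost there (edgeR adjusted p = 0.185) and without the second *ash1*(Y888F) library (0.177), and *qde-3* without either Δ*set-2* library (0.271 and 0.216).

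The genes of the chromatin machinery included both mutated genes. *ash1* had 556 and 825 counts in *ash1*(Y888F), against 179 and 181 in Δ*set-2* (log2 fold change 2.11 ± 0.26, edgeR adjusted p = 0.00751), with 668 to 784 in WT and the parent, so *ash1* RNA was low in Δ*set-2* rather than raised by the substitution. A point substitution cannot be checked by these counts. *set-2* had 140 and 113 counts in *ash1*(Y888F), against 46 and 50 in the libraries labelled as its deletion (1.59 ± 0.33, edgeR adjusted p = 0.0278), a difference lost without either Δ*set-2* library (0.148 and 0.107). The neighbour NCU00268 had 195 and 188 counts in *ash1*(Y888F), against 786 and 757 in Δ*set-2* (−1.83 ± 0.23), and the other neighbour, NCU00270, 317 and 612 against 547 and 526 (−0.05 ± 0.32). *his-3* and *mus-52* did not pass (edgeR adjusted p = 0.236 and 0.361), and counts do not read the *his-3* allele.

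Of the 19 genes of the H3K36, H3K27 and heterochromatin list 6 were higher and 2 lower, beside 14.8 and 11.0% of all genes. *set-7*, the H3K27 methyltransferase, had 237 and 326 counts in *ash1*(Y888F), against 176 and 176 in Δ*set-2* (0.85 ± 0.25, edgeR adjusted p = 0.0748), and *rid-1*, a DNA methyltransferase-like gene of repeat-induced point mutation, 42 and 92 against 13 and 17 (2.31 ± 0.50, edgeR adjusted p = 0.0316). *dim-5*, the H3K9 methyltransferase, and *dim-2*, the DNA methyltransferase, had log2 fold changes of −0.14 ± 0.43 and 0.48 ± 0.23 and did not pass. The list thinned to 1 higher and none lower without the first Δ*set-2* library, and to 2 higher and none lower without the second, so only *ash1* passed in all 4 such fits. None of the 9 histone genes passed (edgeR; 1 had an unadjusted p under 0.05, DESeq2 called none). *hH4-1* had 7688 and 5542 counts in *ash1*(Y888F), against 10595 and 8702 in Δ*set-2* (−0.35 ± 0.36).

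Enzymes of polysaccharide metabolism and cell wall proteins were read against the 14.8% higher and 11.0% lower of all genes. Of 79 glycoside hydrolases (gh) 67 were tested, 22 were higher and 4 lower, with a median of 0.63, and of 17 non-anchored and anchored cell wall proteins (ncw, acw) 8 were higher and 2 lower. *gh18-1*, of the chitinase family, had 30 and 35 counts in *ash1*(Y888F), against 0 and 0 in Δ*set-2*, at least 24.5-fold higher, whereas *gh18-4*, of the same family, had 2 and 0 against 19 and 16, 15.4-fold lower (exact 95% counting interval 3.97 to 133). *gh1-1*, of the beta-glucosidase family, had 212 and 1183 counts in *ash1*(Y888F), against 10 and 17 in Δ*set-2* (5.81 ± 0.94, edgeR adjusted p = 0.0141), with 66 to 86 in the controls. *acw-12* had 3892 and 2741 counts in *ash1*(Y888F), against 219 and 173 in Δ*set-2* (4.28 ± 0.38, edgeR adjusted p = 0.00468), with 2559 to 4199 in the controls, so the transcript was low in Δ*set-2*. *ncw-6* ran opposite, with 64 and 76 counts in *ash1*(Y888F), against 442 and 446 in Δ*set-2* (−2.49 ± 0.25, edgeR adjusted p = 0.00536). Of the plant cell wall degradation list 5 of 21 tested genes (23.8%) were higher and none lower (edgeR; 7 had an unadjusted p under 0.05, and DESeq2 called 7 higher and 0 lower), led by the cellulase *gh5-1* with 36 and 80 counts in *ash1*(Y888F), against 4 and 4 in Δ*set-2* (3.97 ± 0.58, edgeR adjusted p = 0.0110). Without the first Δ*set-2* library 14 glycoside hydrolases, 2 cell wall proteins and 2 plant cell wall genes were higher; 1 hydrolase was lower there, and *gh18-4* was lost (edgeR adjusted p = 0.112). Without the second, 2 cell wall proteins were higher and 2 hydrolases lower.

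Among the nutrient genes, a few of phosphorus and nitrogen metabolism passed, to be read beside 14.8% higher and 11.0% lower of all genes. Of the phosphorus genes 3 of 6 were higher and none lower (edgeR; 3 had an unadjusted p under 0.05, and DESeq2 called 3 higher and 0 lower), and all 3 passed in each fit without 1 library. *pho-4*, a phosphate permease, had 1195 and 192 counts in *ash1*(Y888F), against 20 and 7 in Δ*set-2* (5.90 ± 1.13, edgeR adjusted p = 0.0226), and *pho-2*, alkaline phosphatase, 293 and 255 against 17 and 27 (3.82 ± 0.36, edgeR adjusted p = 0.00492). For *pho-4* WT had 167 and 383 counts, so *ash1*(Y888F) and WT overlapped and Δ*set-2* lay below; its log2 fold change was 3.90 without the first *ash1*(Y888F) library. Of the nitrogen genes 3 of 5 were lower, or 1 of 5 with WT and the parent in the fit: *nit-3*, nitrate reductase, had 47 and 326 counts in *ash1*(Y888F), against 1467 and 1175 in Δ*set-2* (−2.69 ± 0.80, edgeR adjusted p = 0.0763), the nitrate transporter gene *nit-10* 167 and 452 against 1402 and 1280 (−1.96 ± 0.45, edgeR adjusted p = 0.0374), and *nit-6*, nitrite reductase, 4019 and 2920 against 8546 and 9684 (−1.20 ± 0.35, edgeR adjusted p = 0.0728). *nit-6* did not pass without the second *ash1*(Y888F) library or without either Δ*set-2* library (edgeR adjusted p = 0.129 to 0.377). The log2 fold change of *nit-3* was −1.94 without the first *ash1*(Y888F) library and −4.56 without the second, and the WT libraries, with 697 and 251 counts, overlapped *ash1*(Y888F).

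Other lists showed few calls, beside 14.8% higher and 11.0% lower of all genes. Heat shock and oxidative stress had 1 higher and 2 lower of 14, with *hsp60*, the mitochondrial chaperonin, at 2475 and 1859 counts in *ash1*(Y888F), against 875 and 638 in Δ*set-2* (1.71 ± 0.33, edgeR adjusted p = 0.0228), below the 3080 to 4365 of the controls in both; it was lost without the second Δ*set-2* library (edgeR adjusted p = 0.154). The quinate cluster had 1 higher of 6 tested (*qa-3*), sulfur metabolism 2 of 15 (*cys-3* and *cys-16*), arginine synthesis 1 of 11 (*arg-13*), histidine and tryptophan synthesis 1 of 9 (*trp-1*), and DNA repair 2 higher and 1 lower of 25. None of the sulfur, arginine, histidine, tryptophan and repair genes was higher without either Δ*set-2* library. None of 29 genes of mitochondrial complex I (nuo), 13 of cell growth and housekeeping, 5 chitin synthases and 7 cytoplasmic ribosomal proteins passed in edgeR, none had an unadjusted p under 0.05, and DESeq2 called 1 housekeeping gene. Of 23 proteasome genes none passed, 1 had an unadjusted p under 0.05 and DESeq2 called 1 lower.

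The largest differences toward Δ*set-2* included genes that only *ash1*(Y888F) had lost and genes that only Δ*set-2* had raised. NCU09968 had 0 and 0 counts in *ash1*(Y888F), against 414 and 439 in Δ*set-2*, at least 251-fold lower, and 505 to 902 in the 4 control libraries. The overlapping gene NCU09969 had 0 and 0 in *ash1*(Y888F), against 28 and 31 in Δ*set-2*, with 25 to 41 in the controls. Both lie at LG VI:309546-320071 (NC12), and the flanking genes had RNA in *ash1*(Y888F). *stk-49* had 186 and 263 counts against 331 and 411 (−0.55, edgeR adjusted p = 0.212), with 283 to 493 in the controls, and NCU07061 had 124 and 268 against 833 and 986 and was called lower (−2.05, edgeR adjusted p = 0.0189), with 159 to 255 in the controls. NCU08378 had 4 and 1 counts in *ash1*(Y888F), against 2354 and 3162 in Δ*set-2* (−9.85 ± 0.58, edgeR adjusted p = 0.00366), but also 61 and 65 in the parent against 3020 and 1870 in WT. NCU00995 had 50 and 8 counts in *ash1*(Y888F), against 7247 and 7687 in Δ*set-2* (−7.78 ± 0.96, edgeR adjusted p = 0.00769), with 2929 to 3958 in the controls. Among genes with a symbol, *app* had 174 and 25 counts in *ash1*(Y888F), against 1035 and 1032 in Δ*set-2* (−3.15 ± 0.86, edgeR adjusted p = 0.0608), *rrp3* 118 and 262 against 1357 and 2189 (−3.06 ± 0.45, edgeR adjusted p = 0.0112), and *gpr-4*, a G protein-coupled receptor, 41 and 26 against 162 and 391 (−2.84 ± 0.55, edgeR adjusted p = 0.0226). The log2 fold change of *app*, which carries the ASH1 mark, lay between −5.28 and −2.31 when 1 library was left out.

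NCU09209 and NCU09210, which lie next to each other on LG I, were raised in Δ*set-2* alone. NCU09209 had 89 and 1 counts in *ash1*(Y888F), against 7128 and 10461 in Δ*set-2* (−7.37 ± 1.58, edgeR adjusted p = 0.0312), with 12 to 149 in the controls, and NCU09210 had 255 and 35 against 8452 and 10524 (−5.80 ± 1.05, edgeR adjusted p = 0.0190), with 17 to 204 in the controls. For both genes the log2 fold change moved with the *ash1*(Y888F) library left out, between −12.9 and −6.37 for NCU09209. NCU06294, an ASH1-marked gene, had 91 and 354 counts in *ash1*(Y888F), against 7398 and 47848 in Δ*set-2* (−6.81 ± 1.25, edgeR adjusted p = 0.0198), with 169 to 355 in the controls; without the second Δ*set-2* library its log2 fold change was −4.93. NCU02849 had 2 and 2 counts in *ash1*(Y888F), against 221 and 239 in Δ*set-2* (−6.58 ± 0.41, edgeR adjusted p = 0.00366), with 0 to 3 in the controls. NCU07532, NCU05699 and NCU00947 were also raised in Δ*set-2* with libraries far apart, at 165 and 1506, 105 and 1109, and 557 and 2165 counts, against 8 to 26 counts in *ash1*(Y888F); the first 2 did not pass without the second *ash1*(Y888F) library (edgeR adjusted p = 0.124 and 0.130). Without the second Δ*set-2* library their log2 fold changes were −3.53, −3.22 and −4.43, against −5.85, −5.73 and −5.70 with all libraries. Like NCU06294, the genes NCU09210, NCU05699 and NCU00947 carry the ASH1 mark, and NCU05699 also carries H3K27me2/3. NCU09209, NCU02849 and NCU07532 carry neither mark.

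The place of WT shows which mutant lay away from it, though the WT libraries carry another date in their names than all mutant libraries. Of the 648 marked genes that were higher in *ash1*(Y888F), the WT libraries overlapped the Δ*set-2* libraries in 304, WT lay between the mutants in 170, and below both in 116; WT reached the *ash1*(Y888F) level in 44 and lay above both in 13. The 578 unmarked higher genes had another makeup, with WT at the *ash1*(Y888F) level in 174 and above both mutants in 72, but overlapping Δ*set-2* in 102. Of the 820 unmarked genes that were lower in *ash1*(Y888F), WT overlapped *ash1*(Y888F) in 292, lay between in 258, below both in 148, at the Δ*set-2* level in 93 and above both in 24. For 31 of the 88 marked lower genes WT lay below both mutants, and for 41 it overlapped *ash1*(Y888F). These are descriptions of the calls, with no test. With the parent in place of WT, 313 of the marked higher genes overlapped Δ*set-2*; for 153 the parent lay below both mutants and for 142 between them.

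**Figure D4:**
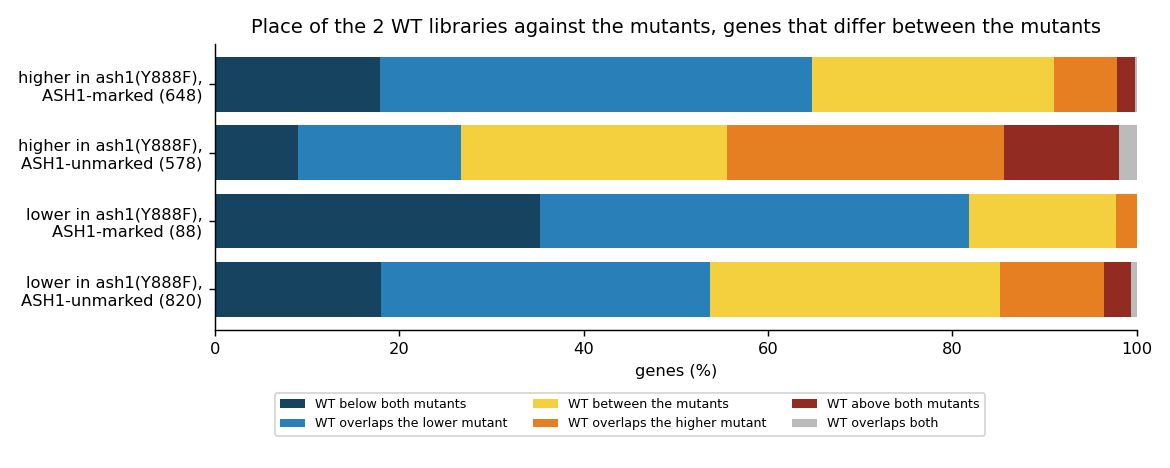
Percent of the genes called between the mutants (rows by direction and ASH1 mark, with their number) for which the 2 WT libraries lay below both mutants, overlapped the mutant with less RNA, lay between, overlapped the mutant with more RNA, or lay above both (TMM-scaled CPM). For the marked genes that were higher in *ash1*(Y888F) WT overlapped Δ*set-2*, the lower mutant, in 46.9% and *ash1*(Y888F) in 6.79%, whereas for the unmarked higher genes these shares were 17.6 and 30.1%.

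Many genes called in one direction lay beside each other along the chromosomes. Counting along each linkage group (LG) and skipping untested genes, 629 of the 1226 higher genes (51.3%) had a neighbour called the same way, and 306 of the 908 lower genes (33.7%). Where untested genes ended a run, the shares were 43.2 and 30.2%. With 14.8% of genes called higher and 11.0% lower, the larger set has more such neighbours by number alone, and the shares were not tested. The longest higher run held 8 genes at LG II:1677867-1696830 (NC12), all ASH1-marked and 4 of them co-marked. Summed over these 8 genes, *ash1*(Y888F) had 3899 and 2862 counts and Δ*set-2* 47 and 38, with 4 to 17 in the controls. NCU05472 had 427 and 578 counts in *ash1*(Y888F), against 0 and 0 in Δ*set-2* (at least 380-fold), NCU05467 339 and 300 against 0 and 0 (at least 241-fold), and NCU05470 174 and 211 against 0 and 0 (at least 145-fold). NCU16538 was the most abundant, with 2415 and 1297 counts in *ash1*(Y888F), against 38 and 35 in Δ*set-2* (5.87 ± 0.48, edgeR adjusted p = 0.00443), and NCU16540, at the edge, had 36 and 52 against 7 and 2 (3.42 ± 0.61).

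A run of 7 higher genes at LG IV:5071805-5097060 was co-marked throughout and had 392 and 409 counts in all in *ash1*(Y888F), against 10 and 16 in Δ*set-2*, with 0 to 5 in the controls. NCU08835 had 124 and 91 counts in *ash1*(Y888F), against 6 and 4 in Δ*set-2* (4.58 ± 0.48, edgeR adjusted p = 0.00573). Of this run NCU08838 was lost without the second *ash1*(Y888F) or the first Δ*set-2* library, and NCU08836 was not tested without the second *ash1*(Y888F) library. The third run, 7 genes at LG VI:448720-518246, joined 5 co-marked genes, among them NCU04710 with 117 and 191 counts in *ash1*(Y888F), against 0 and 0 in Δ*set-2* (at least 116-fold), to 2 unmarked genes with modest differences. Those 2, NCU04713 (359 and 368 against 213 and 262) and NCU04718 (3821 and 2525 against 1763 and 1761), did not pass without the first *ash1*(Y888F) library or either Δ*set-2* library. Where untested genes ended a run, the longest higher run held 7 genes.

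The 3 longest lower runs held 1 ASH1-marked gene each. The longest, 7 genes at LG I:8650308-8675691, had 378 and 279 counts in *ash1*(Y888F), against 3267 and 2752 in Δ*set-2*, with 315 to 735 in the controls, so the run was raised in Δ*set-2*. NCU02932 had 329 and 247 counts in *ash1*(Y888F), against 2861 and 2132 in Δ*set-2* (−2.92 ± 0.34, edgeR adjusted p = 0.00683), and NCU02929 8 and 4 against 115 and 147 (−4.23 ± 0.49, edgeR adjusted p = 0.00683). At the other end NCU16468 had 0 and 0 against 11 and 11 counts, and was not tested without either Δ*set-2* library, NCU02926 did not pass without the second *ash1*(Y888F) or the first Δ*set-2* library, and NCU02931 not without the second Δ*set-2* library. Both other lower runs lie close together on LG IV, 6 genes at 488121-569177 and 6 genes at 601761-628489, with 3 genes that carry H3K27me2/3 in each. The first holds the polyketide synthase gene *pks-3*, with 48 and 17 counts in *ash1*(Y888F), against 253 and 201 in Δ*set-2* (−2.59 ± 0.55, edgeR adjusted p = 0.0300), but 120 and 206 in WT and 561 and 572 in the parent. Its genes summed to 324 and 293 counts in *ash1*(Y888F), against 1204 and 1297 in Δ*set-2*, against 868 to 1508 in the controls, so *ash1*(Y888F) was the strain that stood apart; *nst-4* and *ada-6* were lost without the second Δ*set-2* library (edgeR adjusted p = 0.133 each). The second summed to 195 and 214 counts in *ash1*(Y888F), against 1810 and 1736 in Δ*set-2*, against 764 to 1457 in the controls. Where untested genes ended a run, the longest lower run held 5 genes.

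**Figure D5:**
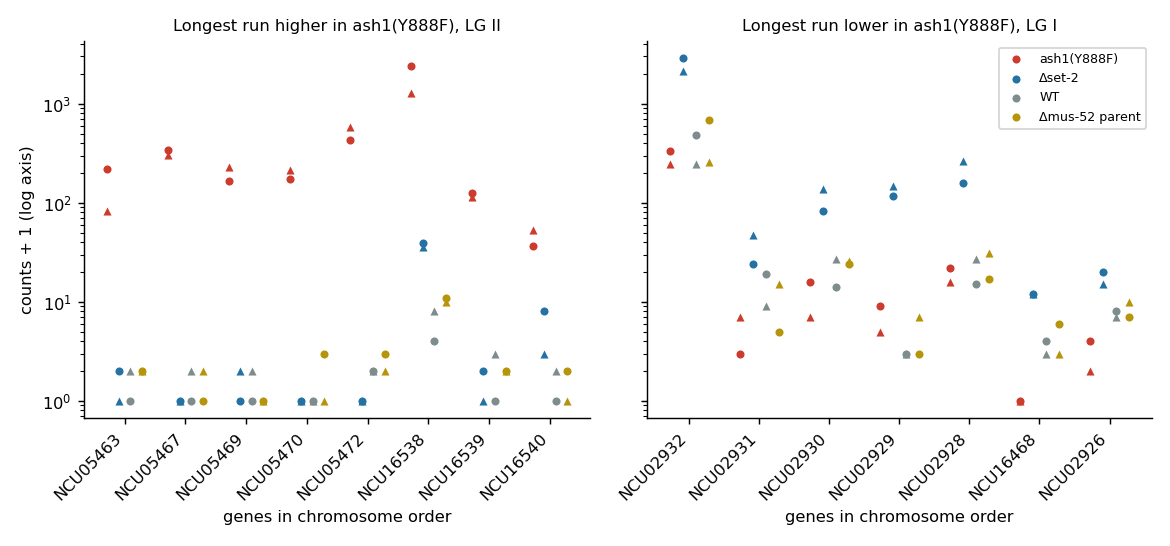
Counts plus 1 (log axis) in each library (circles, first library; triangles, second library) of the genes of the longest run higher in *ash1*(Y888F), 8 genes on LG II, and of the longest run lower in it, 7 genes on LG I, in chromosome order. On the left the *ash1*(Y888F) points lie above all others at every gene; on the right the Δ*set-2* points lie above those of *ash1*(Y888F), WT and the parent at every gene.

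By position, genes within 100 kb of the last gene of a linkage group were higher in 68 of 317 tested cases (21.5%) and lower in 34 (10.7%), against 14.6 and 11.0% further in. Among ASH1-marked genes the share was alike near the ends (30 of 55 higher) and further in (618 of 1150), and among unmarked genes it was 38 of 262 near the ends and 540 of 6803 further in. By linkage group, the share of higher genes ran from 11.9% on LG III to 19.6% on LG VII, and that of lower genes from 8.16% on LG II to 14.5% on LG VI.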

How the data were processed

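Poly-A+ RNA was measured in *ash1*(Y888F), Δ*set-2*, WT and the Δ*mus-52* parent, with 2 libraries each. The authors deposited raw counts per gene: reads from stranded libraries (single-end) passed k-mer filtering and trimming in Stacks, TopHat2 alignment, SAMtools sorting and strand-aware HTSeq counting, in versions not given in the sources used here. Reads in no gene entered neither library sizes nor tests. They made up 14.0 to 14.8% in the mutants, 9.56 and 10.8% in WT and 4.89 and 5.70% in the parent. The first parent library is a column of a table without column names, whose 7 other count columns were not used (3 are identical to other libraries). The deposited ChIP-seq gene lists have only a score of 0, so membership alone was taken from them. The deposited H3K27me2/3 table holds log2 ratios of *ash1*(Y888F) over WT coverage, made with Bowtie2 on NC12 and deepTools. Tables of the authors' own comparisons hold fold changes and p-values and were not used.

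The 4 mutant libraries were fitted with edgeR 4.0.16 in R 4.3.3 (TMM, default low-count filter, quasi-likelihood test, threshold 0.1 on the Benjamini-Hochberg value over all genes tested), with no covariate; the step was tested on simulated data. The approximate SE divides the log2 fold change by the root of F. DESeq2 1.42.0, RLE size factors, no filter, other thresholds, WT or parent in the fit, a replicate block and leaving out each library were alternatives. Genes at 0 in a mutant are given against a floor of 3 counts over its 2 libraries, and those with 1 to 3 counts with an exact 95% interval; both cover counting error only. Symbols came from RefSeq (NC12), which matched 9729 of 9730 genes; list names were matched by symbol or synonym, and 12 could not be matched. The genes named were drawn from the 10 largest fold changes in each direction among genes with an average log2 CPM of at least 3 and non-overlapping libraries, the same among genes with a symbol, the 3 smallest p of each list, the 3 longest runs in each direction, the strain checks and the ChIP extremes; further list members were named after their values were seen. Members and lists were chosen with earlier results of these data known.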

Additional observations from a re-analysis of the deposited data

How the results depend on the processing

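With an adjusted p under 0.05, 543 genes were lower (486 unmarked, 57 ASH1-marked) and 337 unmarked genes higher. With WT and the parent in the fit, 1003 unmarked genes were higher. With the replicate number of the library names as a block, 1523 genes were lower (1401 unmarked) and 1113 unmarked genes higher. The numbers come from the names alone, same-numbered libraries had correlated deviations (r = 0.39) in 2 pairs only, and the block changed no direction. Leaving out 1 library gave 753 to 1473 higher and 433 to 1241 lower genes, 538 to 653 and 54 to 94 for marked genes, 215 to 867 and 379 to 1147 for unmarked genes, and 141 to 172 and 47 to 83 for genes with H3K27me2/3. Other planned fits stayed within 1.5 times of the main counts, DESeq2 included (1384 higher, 991 lower), and no named gene that was called changed direction. Among genes that were not called, *mfa-1*, *con-6*, *frq*, *dim-5*, *pre-2*, *pp-1* and NCU00270 changed sign when 1 library was left out. With the parent in place of WT, 57 lower genes overlapped the higher mutant and for 14 the parent lay above both mutants. The cause of these shifts was not tested. Within 50 and 200 kb of an end, 21.3 and 21.6% of genes were higher. With 2 libraries a strain, depth limits genes under about 10 counts, and 1460 genes were not tested.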

Other observations

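Gene families named by a shared symbol prefix, with at least 7 tested members outside the lists, were counted after the results were known. The serine/threonine kinases (stk) had 8 of 52 tested genes higher in *ash1*(Y888F) (15.4%) and 7 lower (13.5%), near the 14.8 and 11.0% of all genes, and a median log2 fold change of −0.11. *stk-56*, which carries both marks, had 128 and 147 counts in *ash1*(Y888F), against 0 and 2 in Δ*set-2*, giving a ratio of 156 (exact 95% counting interval 42.7 to 1293). Of 20 peroxin genes (pex) none was higher and 3 were lower (15%, edgeR; 5 had an unadjusted p under 0.05, DESeq2 called 0 higher and 2 lower), and of 16 tca genes none was higher and 2 were lower (12.5%, DESeq2 called 1 higher and 2 lower). None of the 7 COP9 signalosome genes (csn) passed, none had an unadjusted p under 0.05, and DESeq2 called none. Among single genes, *fkr-3*, of the FK506-binding protein family, had 457 and 603 counts in *ash1*(Y888F), against 13 and 16 in Δ*set-2* (5.35 ± 0.31, edgeR adjusted p = 0.00366), with 21 to 69 in the controls, and *neg-1* had 807 and 595 against 17 and 24 (5.28 ± 0.38, edgeR adjusted p = 0.00381), with 11 to 55 in the controls.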
